A study of Mus musculus with 21 samples.

Results

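Of the 78317 gene rows in the deposited tables, 10 carry the symbols of transcription factors of the naive pluripotent state: Klf2, Klf4, Klf5, Esrrb, Tfcp2l1, Tbx3, Zfp42, Prdm14, Nr0b1 and Nr5a2. They were taken by symbol alone, each symbol had 1 row, and all 10 passed the filter on low counts among 18901 genes tested. RNA was sequenced from E14, a mouse embryonic stem cell line, in 7 groups of 3 libraries. With VB6, the cells were exposed to pyridoxine (a form of vitamin B6) at 20 µM and collected after 3, 5 or 7 days. Vehicle cells were collected on the same days, and the ES group came from untreated cells in standard culture. The cells are otherwise unmodified as far as the labels say. How differentiation was started, and whether the 3 libraries of a group come from separate cultures, is not in the labels, so p-values measure the spread between libraries, which may be technical.

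Naive pluripotency is the state of the preimplantation epiblast, and mouse embryonic stem cells hold it in culture with leukaemia inhibitory factor (LIF) or with inhibitors of MEK and GSK3. LIF acts through Stat3, which activates Klf4 and Tfcp2l1. Inhibition of GSK3 relieves repression by Tcf7l1, which otherwise holds Esrrb down. The factors bind each other's enhancers together with Oct4 (Pou5f1) and Sox2, and the whole set is switched off when cells leave the naive state for the formative epiblast, where Otx2 and Pou3f1 (Oct6) come on. Tbx3, Klf4, Klf5 and Tfcp2l1 are also used later, in endoderm, gut and other epithelia.

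Library totals ran from 15882380 to 21629730 expected counts. The fragment length implied by the deposited values was 266 ± 7.77 nt in VB6 day 7 libraries and 227 ± 8.69 nt in vehicle day 5 libraries, while the means of the other 5 groups lay between 307 and 312 nt (SD, n = 3). Ribosomal protein transcripts took 3.39% and 3.49% of counts in these same 2 groups, against 5.72 to 6.90% elsewhere. Each comparison of VB6 with vehicle at days 5 and 7 therefore sets short-fragment libraries against long-fragment ones, in opposite directions, and treatment and fragment length cannot be told apart there. Steps between days and comparisons with ES cells that involve vehicle day 5 or VB6 day 7 carry the same difference. In them day and fragment length cannot be told apart, also where no corrected value is given. A value after correction for GC content and effective gene length is given beside most of those VB6 results and some of the steps between days. In the ES group all 7 stem cell markers were present, with a summed level of 2334 to 2640 CPM (normalized counts scaled to a common library size). Expected counts of Esrrb, Tbx3, Zfp42 and Nr5a2 were not whole in some libraries, while those of the other 6 factors were whole in all.

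In ES cells the factors covered a wide range of abundance. On the TPM scale, which divides by transcript length and so allows levels of different genes to be compared, the level of Zfp42 was 221 ± 35.3, that of Esrrb 188 ± 25.0 and that of Klf2 130.3 ± 37.3 TPM (SD, n = 3). Zfp42 (Rex1) is the zinc finger protein most used as a reporter of the naive state, and Esrrb is an orphan nuclear receptor. The level of Tfcp2l1 followed at 77.3 ± 7.69 TPM, ahead of Klf4 at 56.4 ± 14.9, Klf5 at 50.8 ± 1.83 and Tbx3 at 46.9 ± 9.08 TPM. The ranges of Klf4, Klf5 and Tbx3 are not separated at these SDs. Nr0b1 (25.7 ± 4.81 TPM), Nr5a2 (19.3 ± 2.99 TPM) and Prdm14 (10.9 ± 0.73 TPM) were lowest. The 10 together summed to 697 to 957 TPM per ES library. Later sums were 107 to 110.3 TPM in VB6 and 137 to 166 TPM in vehicle at day 3, 97.9 to 105 and 82.4 to 99.4 TPM at day 5, and 103 to 112 and 77.8 to 94.2 TPM at day 7. TPM also carries the fragment lengths of vehicle day 5 and VB6 day 7 libraries, so the arms are not compared by these sums at days 5 and 7. By day 7 the order had changed in part, with Nr0b1, Nr5a2 and Prdm14 still the lowest in both arms. Klf5 now had the highest mean of the 10 in both arms, at 27.4 ± 4.02 TPM in VB6 cells and 17.5 ± 0.67 TPM in vehicle cells, although in vehicle cells it was not separated from Zfp42 at 17.3 ± 1.47 TPM. Esrrb was down to 6.54 ± 1.36 and 5.58 ± 0.92 TPM.

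**Figure D1:**
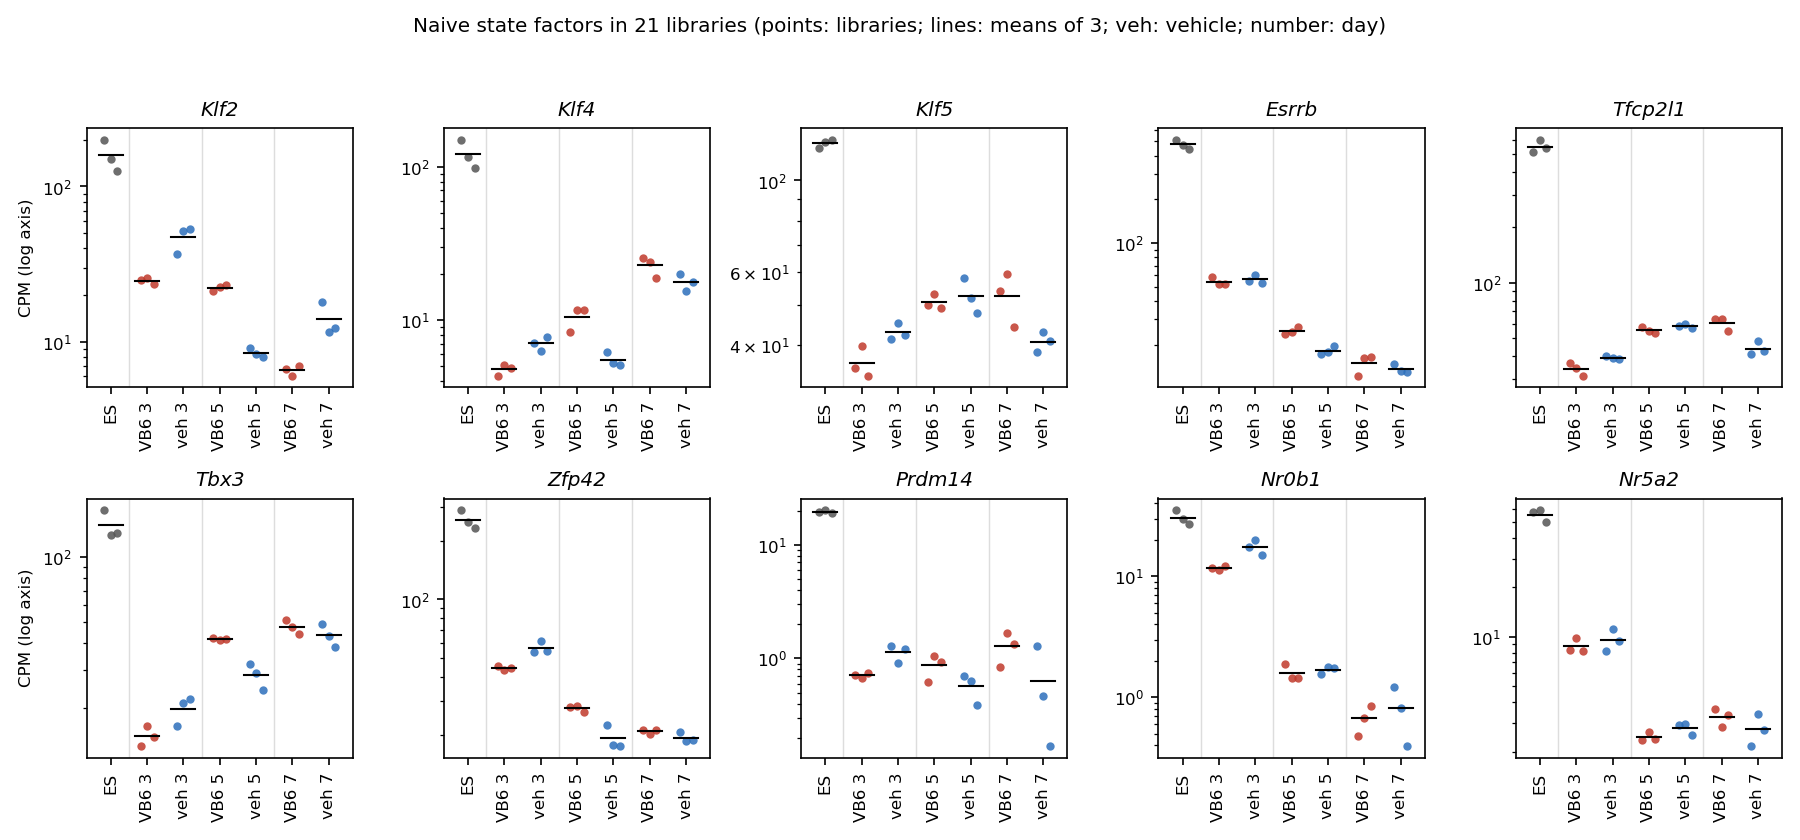
Level of each factor in all 21 libraries, in CPM on a log axis with its own range per panel. Points are libraries and lines are means of 3, with ES in grey, VB6 in red and vehicle in blue at days 3, 5 and 7. All 10 factors are highest in ES cells, and Klf4, Tbx3, Klf5 and Tfcp2l1 turn upward again after day 3 in at least 1 arm.

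Every factor was lower at day 3 than in ES cells, in both arms and in every library. All 10 were called lower in vehicle day 3 cells (edgeR quasi-likelihood test, Benjamini-Hochberg adjusted p below 0.05), a comparison in which 64.9% of all genes tested were called and 31.8% called lower. All 10 were also called lower in VB6 day 3 cells against the same ES libraries, where 65.3% of all genes were called and 32.1% called lower. The median log2 fold change of the 10 was -2.91 in VB6 day 3 and -2.67 in vehicle day 3 cells, against 0.02 and 0.01 over all genes tested. The loss was uneven. Relative to the ES mean, vehicle day 3 cells kept 57.1% of Nr0b1, 34.9% of Klf5 and 29.7% of Klf2, but 7.13% of Tfcp2l1, 5.85% of Klf4 and 5.82% of Prdm14.

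**Figure D2:**
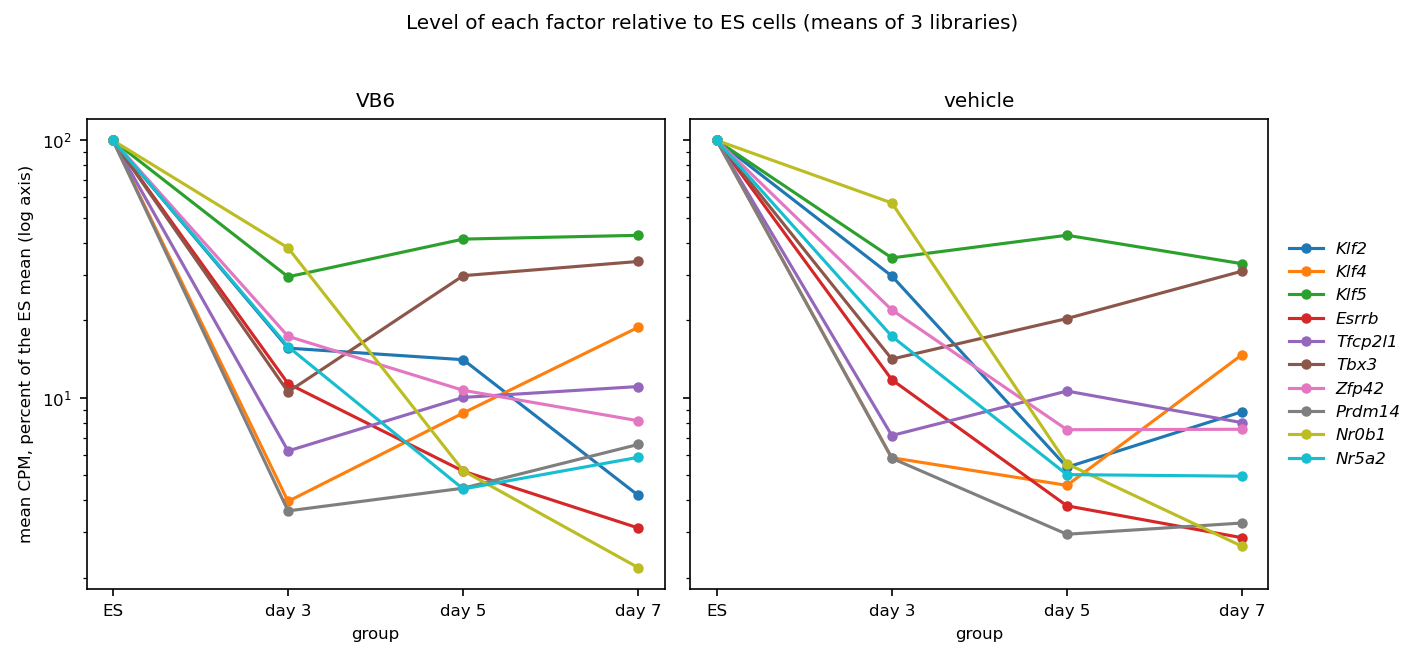
Mean CPM of each factor as a percent of its ES mean on a log axis, in ES cells and at days 3, 5 and 7 with VB6 (left) or vehicle (right), with 1 line per gene. Nr0b1 starts highest at day 3 and ends lowest at day 7 in both panels, whereas Klf5 and Tbx3 end at 33.2 and 31.0% in vehicle cells.

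The 3 Krüppel-like factors bind the same GT-rich motif and can replace each other in sustaining self-renewal of mouse embryonic stem cells. Klf2 lies on chromosome 8 (mm10, 72319033 to 72321656, plus strand), Klf4 on chromosome 4 (55527143 to 55532466, minus strand) and Klf5 on chromosome 14 (99298691 to 99315036, plus strand). Klf2, which is associated with the MEK-inhibited state, had 36.6, 51.4 and 53.2 CPM in vehicle day 3 libraries, against 199.7, 150.1 and 126 CPM in ES libraries. Its log2 fold change was -1.75 ± 0.14 (SE; edgeR adjusted p = 2.29e-10). Klf4, a direct Stat3 target and a reprogramming factor, had 7.12, 6.32 and 7.74 CPM in vehicle day 3 libraries, against 149.6, 115 and 97.3 CPM in ES libraries. That is a log2 fold change of -4.09 ± 0.16 (edgeR adjusted p = 3.11e-16). Both genes also varied most between ES libraries, and in both ES replicate 1 was the highest. Klf5, needed for the inner cell mass and trophectoderm, had 41.4, 45.2 and 42.4 CPM in vehicle day 3 libraries and 120.1, 124 and 125 CPM in ES libraries. It fell least of the 3, by 1.52 ± 0.09 on the log2 scale (edgeR adjusted p = 3.93e-13).

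After day 3 the 3 Klf genes parted. In vehicle cells Klf2 had 9.18, 8.41 and 7.95 CPM at day 5 and 18.1, 11.6 and 12.3 CPM at day 7. The day 5 over day 3 log2 fold change of Klf2 was -2.47 ± 0.17 (edgeR adjusted p = 1.48e-11). Its later difference of 0.72 ± 0.19 between day 7 and day 5 (edgeR adjusted p = 0.00176) turned to -0.19 after the GC and length correction (edgeR adjusted p = 0.211), so no direction is given for it. Klf4 had 6.21, 5.24 and 5.09 CPM in vehicle day 5 libraries, below all 3 day 3 libraries. That step was not called in the main fit, but was with no filter (log2 -0.36, edgeR adjusted p = 0.0247). At vehicle day 7 Klf4 had 20.1, 15.4 and 17.8 CPM, above all 3 day 3 libraries. It rose by 1.33 ± 0.17 on the log2 scale between days 3 and 7 (edgeR adjusted p = 2.34e-07), and by 1.13 after correction, reaching 14.7% of its ES mean. With VB6, Klf4 had 4.34, 5.10 and 4.89 CPM at day 3, 8.33, 11.7 and 11.6 CPM at day 5, and 25.2, 24.0 and 18.9 CPM at day 7. The ranges of these 3 days did not overlap. Its day 5 over day 3 and day 7 over day 5 log2 fold changes with VB6 were 1.13 ± 0.19 (edgeR adjusted p = 1.47e-05) and 1.10 ± 0.16 (edgeR adjusted p = 2.34e-06). Klf5 had 58.1, 51.9 and 48.0 CPM in vehicle day 5 libraries and 38.5, 43.1 and 40.9 CPM in vehicle day 7 libraries. The day 7 range of Klf5 overlaps that of day 3, and the 2 days did not differ in the test (log2 -0.08 ± 0.09, edgeR adjusted p = 0.469).

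**Figure D3:**
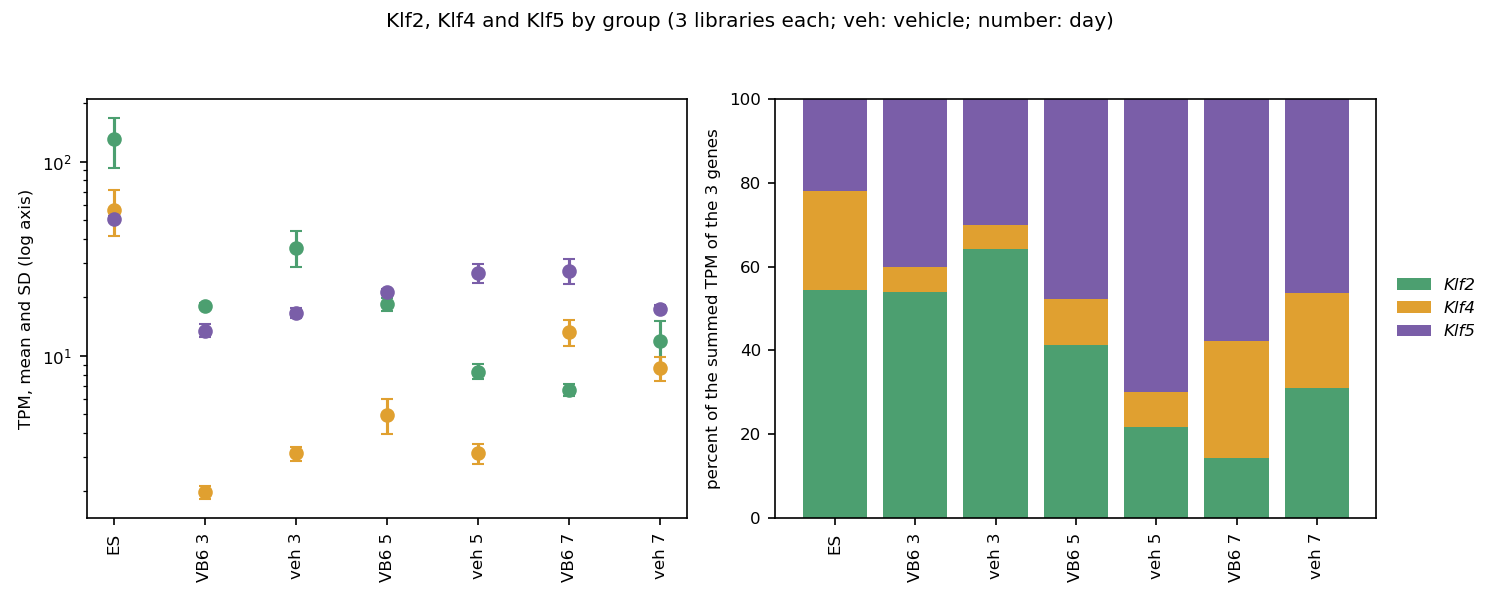
Left, TPM of Klf2, Klf4 and Klf5 by group (mean and SD of 3 libraries, log axis); right, the mean percent of their summed TPM that each makes up. Klf2 holds 54.4% in ES cells, and Klf5 holds 57.7% with VB6 and 46.4% with vehicle at day 7.

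The make-up of the Klf pool, measured as shares of summed TPM, changed with these courses. Klf2 made up 54.4 ± 3.30% of the 3 genes' TPM in ES cells (SD, n = 3). Its share was 54.0 ± 1.31% with VB6 and 64.2 ± 4.35% with vehicle at day 3, 41.2 ± 1.16% and 21.8 ± 0.42% at day 5, and 14.4 ± 2.69% and 30.9 ± 5.17% at day 7. Thus the arm with the smaller Klf2 share was VB6 at days 3 and 7 and vehicle at day 5, with no overlap between libraries on any of the days. Klf4 held 23.6 ± 0.96% in ES cells and only 5.91 ± 0.48% with VB6 and 5.71 ± 1.03% with vehicle at day 3. It was back to 28.0 ± 1.79% with VB6 and 22.7 ± 1.20% with vehicle at day 7. Shares on this scale also carry the fragment lengths of vehicle day 5 and VB6 day 7 libraries.

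Among the nuclear receptors, Esrrb lies on chromosome 12 (86361117 to 86521628, plus strand), Nr5a2 on chromosome 1 (136842571 to 136960448, minus strand) and Nr0b1 on the X chromosome (86191764 to 86195947, plus strand). Esrrb, a main target of the Wnt arm of the network, had 54.8, 60.4 and 53.4 CPM in vehicle day 3 libraries, against 513, 475 and 446 CPM in ES libraries. Its log2 fold change was -3.09 ± 0.08 (edgeR adjusted p = 3.13e-19), and it went on falling, to 17.2, 17.9 and 19.5 CPM at day 5 and 14.8, 13.2 and 13.0 CPM at day 7. Groups of neighbouring days did not overlap in the vehicle arm. Nr5a2 (Lrh-1), an orphan receptor that binds the Oct4 promoter region, had 8.24, 11.1 and 9.47 CPM in vehicle day 3 libraries, against 57.3, 59.0 and 50.2 CPM in ES libraries. It had 2.92, 2.94 and 2.52 CPM at day 5 and 2.16, 3.39 and 2.71 CPM at day 7 with vehicle, with overlapping ranges. The step from day 3 to day 5 was a log2 fold change of -1.78 ± 0.15 (edgeR adjusted p = 3.26e-10). Nr0b1 (Dax1), which partners and restrains Nr5a2 and Esrrb, kept the largest share of its ES mean of the 10 at day 3, but 5.54% at vehicle day 5. It still had 17.4, 19.9 and 15.1 CPM in vehicle day 3 libraries, against 35.1, 29.8 and 26.9 CPM in ES libraries. By day 5 it was at 1.57, 1.79 and 1.73 CPM, and its log2 fold change against day 3, -3.36 ± 0.18 (edgeR adjusted p = 1.84e-13), was the lowest of the 10 between those days. At day 7 it had 8 to 16 expected counts per VB6 library and 7 to 22 per vehicle library.

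Promoter sequences were in the RefSeq table (GRCm38.p6, the assembly behind mm10) for 7 of the 10 factors, with 9 start sites. Windows from 250 bases before to 50 bases after each start were searched on both strands for AAGGTCA (a nuclear receptor half-site), GGGTGTG (a Klf GT box), CTTTGAT (a Tcf/Lef motif) and ATGCAAA (an Oct factor motif). These occur in 4.72%, 7.95%, 3.73% and 4.63% of all 32851 promoter windows in the table. Matches were found in the windows of Zfp42 and of 1 of 2 Esrrb starts, and they are shown as the place where letters bound by Klf and Oct factors occur; Klf2, Klf4, Tfcp2l1, Nr0b1 and Nr5a2 had none of these letters. In Zfp42 a GT box lies 74 to 68 bases and an Oct motif 185 to 179 bases before the start. In Esrrb a GT box lies 221 to 215 bases before it. All 3 are on the strand opposite to the gene, so the capitals show the reverse complement. The 250 bases before each start are, 5′ to 3′ on the gene's strand, at chr8:43307010-43307259 (minus strand) for Zfp42 and chr12:86360867-86361116 (plus strand) for Esrrb.
Zfp42: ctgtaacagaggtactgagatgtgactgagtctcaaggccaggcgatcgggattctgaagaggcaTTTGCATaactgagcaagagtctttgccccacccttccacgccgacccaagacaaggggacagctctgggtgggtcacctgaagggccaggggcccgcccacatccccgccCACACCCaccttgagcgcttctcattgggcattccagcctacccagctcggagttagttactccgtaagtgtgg
Esrrb: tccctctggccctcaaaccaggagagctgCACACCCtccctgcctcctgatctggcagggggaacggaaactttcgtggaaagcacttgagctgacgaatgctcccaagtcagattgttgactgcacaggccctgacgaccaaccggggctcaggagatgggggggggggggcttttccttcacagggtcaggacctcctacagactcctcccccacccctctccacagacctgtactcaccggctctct

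Tfcp2l1 and Tbx3 both fell. With vehicle, Tbx3 then climbed to day 7, while Tfcp2l1 was called higher than at day 3 on day 5 only. Tfcp2l1, which relays both the LIF and the GSK3 signals, lies on chromosome 1 (118627945 to 118685168, plus strand), and Tbx3, a T-box factor that LIF sustains through PI3K signalling, on chromosome 5 (119670669 to 119684724, plus strand). Tfcp2l1 had 40.0, 38.9 and 38.6 CPM in vehicle day 3 libraries, against 512, 599 and 537 CPM in ES libraries, a log2 fold change of -3.81 ± 0.08 (edgeR adjusted p = 3.58e-21). With vehicle it then had 58.3, 59.8 and 56.9 CPM at day 5 and 41.0, 48.2 and 42.7 CPM at day 7. The rise at day 5, 0.57 ± 0.07 on the log2 scale (edgeR adjusted p = 3.97e-07), was 0.15 after correction, still called. Vehicle day 7 against day 3 was not called for Tfcp2l1 and was at log2 -0.04 after correction. With VB6 it had 36.6, 34.5 and 31.3 CPM at day 3, 57.4, 54.5 and 53.4 CPM at day 5, and 63.7, 63.4 and 55.1 CPM at day 7. Tbx3 had 16.4, 21.01 and 22.1 CPM in vehicle day 3 libraries, against 165, 126 and 129.7 CPM in ES libraries. It then climbed, with 32.1, 29.2 and 24.2 CPM at day 5 and 48.9, 43.3 and 38.5 CPM at day 7, and no overlap between days. Between days 3 and 7 of vehicle it rose by 1.13 ± 0.12 on the log2 scale (edgeR adjusted p = 2.10e-08), or 0.83 after correction. With VB6 it had 13.3, 16.4 and 14.6 CPM at day 3, 42.4, 41.3 and 41.8 CPM at day 5, and 51.1, 47.5 and 43.9 CPM at day 7. Its day 5 over day 3 log2 fold change with VB6 was 1.49 ± 0.13 (edgeR adjusted p = 6.49e-10).

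Zfp42 and Prdm14 fell and stayed low. Zfp42 lies on chromosome 8 (43295063 to 43306980, minus strand), and Prdm14, a PR-domain regulator that represses FGF signalling and DNA methyltransferases, on chromosome 1 (13113457 to 13127163, minus strand). Zfp42 had 53.5, 61.1 and 54.6 CPM in vehicle day 3 libraries, against 288, 251 and 233 CPM in ES libraries, a log2 fold change of -2.19 ± 0.08 (edgeR adjusted p = 1.66e-16). It had 22.5, 17.9 and 17.6 CPM at day 5 and 20.8, 18.6 and 18.8 CPM at day 7 with vehicle, ranges that overlap. Prdm14 had 1.30, 0.90 and 1.21 CPM in vehicle day 3 libraries, against 19.3, 20.1 and 19.2 CPM in ES libraries. Its log2 fold change was -4.09 ± 0.27 (edgeR adjusted p = 5.44e-12). From day 3 on it rested on 3 to 30 expected counts per library, and it is the least precisely measured of the 10.

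Counting all 10, vehicle day 5 against day 3 had 3 factors called higher (Klf5, Tfcp2l1 and Tbx3) and 6 called lower, with 65.3% of all genes called, 31.9% higher and 33.4% lower. Klf5 was not called after correction (log2 0.14, edgeR adjusted p = 0.154) or without vehicle day 5 replicate 1 (log2 0.22, edgeR adjusted p = 0.0536). Prdm14, among the 6, was not called without any 1 of 4 libraries, vehicle day 3 replicates 1 and 3 (log2 -0.88 and -0.92) and vehicle day 5 replicates 2 and 3 (log2 -1.04 and -0.76). Vehicle day 7 against day 5 had 3 called higher (Klf2, Klf4 and Tbx3) and 4 called lower, with 66.3% of all genes called, 35.2% higher and 31.1% lower. Of the 3, Klf4 alone was called higher after correction, where 63.5% of the genes used were called. Vehicle day 7 against day 3 had 2 called higher (Klf4 and Tbx3) and 5 called lower, with 67.4% of all genes called, 34.3% higher and 33.1% lower. With VB6, day 5 against day 3 had 4 called higher (Klf4, Klf5, Tfcp2l1 and Tbx3) and 4 called lower (Esrrb, Zfp42, Nr0b1 and Nr5a2), with 56.2% of all genes called, 29.9% higher and 26.4% lower. After correction Klf2 was called lower as well (log2 -0.56, edgeR adjusted p = 4.98e-05). VB6 day 7 against day 5 had Klf4 called higher and 4 called lower, with 54.5% of all genes called, 27.3% in each direction. After correction 1 was called higher and 5 lower, where 57.6% of the genes used were called. Among the 5 was Tfcp2l1 (log2 -0.19, edgeR adjusted p = 0.00784), which limma called higher on log2(TPM + 1) (0.39, adjusted p = 0.00122). Against ES cells, all 10 were called lower at day 7 in both arms, with 75.0% of all genes called (37.1% lower) for VB6 and 71.8% (35.0% lower) for vehicle. All 10 were also called lower at day 5, a comparison with ES cells added after seeing the data, where 67.3% of all genes were called (32.3% lower) for VB6 and 75.0% (37.4% lower) for vehicle. At day 7 the least reduced factor was Klf5 (42.8% of its ES mean with VB6, 33.2% with vehicle) and the most reduced was Nr0b1 (2.19% and 2.65%).

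Markers of other cell types moved over the same days. The 8 markers of visceral endoderm and liver summed to 5417 to 6800 CPM with VB6 and 4278 to 4560 CPM with vehicle at day 7, against 39.6 to 44.2 CPM in ES cells, where Afp was at 0. The 7 definitive endoderm markers summed to 205 to 240.3 CPM with VB6 and 201 to 234 CPM with vehicle at day 7, against 33.6 to 40.1 CPM in ES cells (Cer1 at 0). The 6 gut markers summed to 30.8 to 45.1 CPM with VB6 and 36.1 to 41.0 CPM with vehicle at day 7, against 10.6 to 15.7 CPM in ES cells, and Cdh17 was at 0 in VB6 day 7 libraries. The 7 trophoblast markers summed to 64.0 to 82.7 CPM with VB6 and 50.8 to 71.2 CPM with vehicle at day 7, against 10.3 to 13.4 CPM in ES cells. Among them Prl3d1 was at 0 in both day 7 groups, and Tpbpa was at 0 in the VB6 one. Fibroblast markers (6 genes, of which Col3a1, Postn and Dcn were at 0 in ES cells) reached 446 to 711 CPM with VB6 and 422 to 596 CPM with vehicle at day 7. The 6 primordial germ cell markers were at 120.5 to 160 CPM with VB6 and 95.7 to 103 CPM with vehicle, against 219.9 to 238 CPM in ES cells. Mesoderm and neural lists were at 130 to 146 and 60.1 to 78.6 CPM with VB6, at 95.5 to 100.3 and 108 to 122 CPM with vehicle, and at 10.3 to 11.9 (Hand2 at 0) and 15.5 to 17.5 CPM in ES cells. The 6 endothelial markers stayed between 4.65 and 11.4 CPM in all groups, with Emcn at 0. The part of these cells in the return of Klf4, Tbx3, Klf5 and Tfcp2l1 was not tested. In bulk RNA, fewer expressing cells and less RNA per cell cannot be told apart.

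VB6 and vehicle cells were compared on each day, which asks whether pyridoxine changes how the naive network is lost. At day 3 the fragment lengths of the groups overlap, but other library properties did not. Mean GC was 48.27 to 48.31% with VB6 and 48.35 to 48.65% with vehicle. Ribosomal protein transcripts took 6.73 to 7.00% and 6.01 to 6.56% of counts, and mitochondrial ones 2.65 to 2.94% and 2.34 to 2.57%. The part of these properties was not tested. On that day 3 of the 10 factors were called lower with VB6 and none higher, while 4.26% of all genes were called and 2.77% were called lower. The median log2 fold change of the 10 was -0.38, against -0.01 over all genes. Klf2 moved most. It had 25.0, 25.6 and 23.5 CPM in VB6 libraries, against 36.6, 51.4 and 53.2 CPM in vehicle libraries, and the groups did not overlap. Its log2 fold change of -0.93 ± 0.15 (edgeR adjusted p = 0.00122) was called with each of the 6 libraries left out in turn and was -0.73 after correction (edgeR adjusted p = 5.64e-05). Nr0b1 had 11.6, 11.3 and 12.2 CPM with VB6, against 17.4, 19.9 and 15.1 CPM with vehicle, again without overlap (log2 -0.58 ± 0.14, edgeR adjusted p = 0.0193). Zfp42 had 45.6, 43.5 and 44.4 CPM with VB6, against 53.5, 61.1 and 54.6 CPM with vehicle, and a log2 fold change of -0.34 ± 0.08 (edgeR adjusted p = 0.0206). The calls of Nr0b1 and Zfp42 depended on single libraries. Without vehicle replicate 2 their log2 fold changes were -0.47 and -0.28 (edgeR adjusted p = 0.148 each), and without VB6 replicate 1, 2 or 3 they were -0.58, -0.55 and -0.61 for Nr0b1 and -0.36, -0.32 and -0.34 for Zfp42, none called. At this day the summed stem cell markers were 1569 to 1592 CPM with VB6 and 1793 to 2023 CPM with vehicle, and those of visceral endoderm and liver 545 to 595 and 515 to 598 CPM. Not every stem cell marker moved in the direction of the sum. The part of these markers in the result was not tested.

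The other 7 factors did not pass at day 3, and all had a value below 0. Esrrb, with 58.3, 52.6 and 51.9 CPM in VB6 and 54.8, 60.4 and 53.4 CPM in vehicle libraries, overlapped in part (log2 -0.05 ± 0.08, edgeR adjusted p = 0.784) and was at 0.03 after correction. Klf4 had 4.34 to 5.10 CPM with VB6 and 6.32 to 7.74 CPM with vehicle, and Tbx3 had 13.3 to 16.4 and 16.4 to 22.1 CPM. Both reached the threshold in DESeq2 (adjusted p = 0.0377 for Klf4 and 0.0312 for Tbx3) and missed it in edgeR (adjusted p = 0.105 and 0.0719). Log2 fold changes of Klf5, Tfcp2l1, Prdm14 and Nr5a2 were -0.24, -0.20, -0.68 and -0.13.

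**Figure D4:**
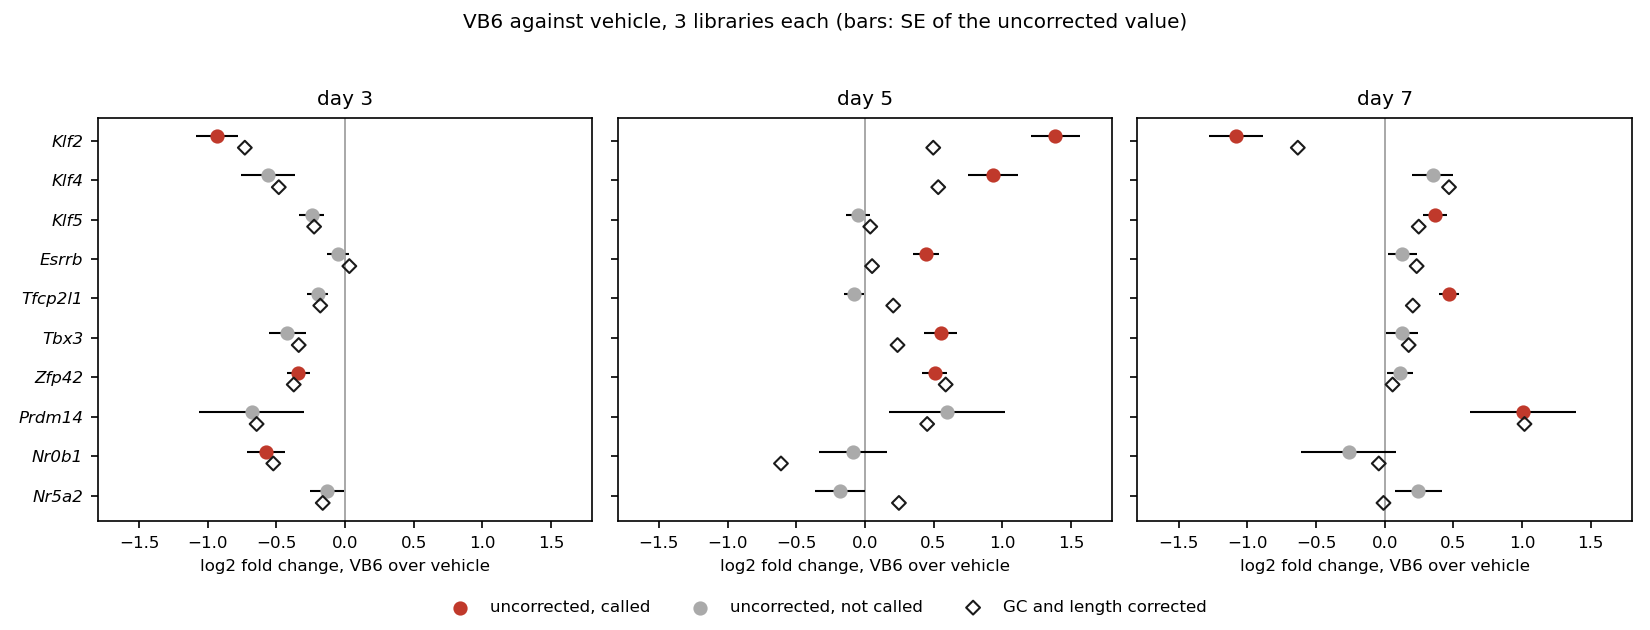
Log2 fold change of VB6 over vehicle for each factor at days 3, 5 and 7 (3 libraries per group). Circles are uncorrected values with SE bars, red where edgeR's adjusted p is below 0.05 and grey otherwise; open diamonds are values after GC and length correction. Klf2 is at -0.93, 1.39 and -1.08 on the 3 days, and at -0.73, 0.50 and -0.63 after correction.

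At day 5, 5 factors were called higher with VB6 and none lower, in a comparison that called 56.7% of all genes, 31.2% higher. The vehicle libraries of that day are those with the shortest fragments. Klf2 had 21.1, 22.6 and 23.1 CPM with VB6, against 9.18, 8.41 and 7.95 CPM with vehicle, a log2 fold change of 1.39 ± 0.18 (edgeR adjusted p = 5.68e-07). After correction it was 0.50, still called (edgeR adjusted p = 0.00219). Klf2 has the transcript richest in GC of the 10, at 61.6%. Klf4 had 8.33, 11.7 and 11.6 CPM with VB6 and 6.21, 5.24 and 5.09 CPM with vehicle, at a log2 fold change of 0.93 ± 0.18 (edgeR adjusted p = 0.000128) and 0.53 after correction. Zfp42 had 28.1, 28.2 and 26.2 CPM with VB6, against 22.5, 17.9 and 17.6 CPM with vehicle, at 0.51 ± 0.09 (edgeR adjusted p = 5.55e-05) and 0.59 after correction, so that it alone of the 5 was no smaller. Esrrb had 23.7, 24.2 and 26.5 CPM with VB6, against 17.2, 17.9 and 19.5 CPM with vehicle, without overlap (log2 0.45 ± 0.09, edgeR adjusted p = 0.00028). Corrected, its difference was 0.05 (edgeR adjusted p = 0.642). Tbx3 had 42.4, 41.3 and 41.8 CPM with VB6, against 32.1, 29.2 and 24.2 CPM with vehicle, with a log2 fold change of 0.55 ± 0.12 (edgeR adjusted p = 0.000367) that was 0.24 after correction (edgeR adjusted p = 0.071). The corrected comparison called 39.7% of the genes it could use and 5 of the 10 factors, with Tfcp2l1 added as higher (log2 0.21) and Nr0b1 as lower (log2 -0.61). The direction of Tfcp2l1 turned with the scale, since limma called it lower on log2(TPM + 1) (-0.32, adjusted p = 0.0069) and on log2(TPM + 0.1) (-0.35, adjusted p = 0.00633), so no direction is given for it. These 2 overlapped between groups before correction, with 53.4 to 57.4 and 56.9 to 59.8 CPM for Tfcp2l1 and 1.44 to 1.90 and 1.57 to 1.79 CPM for Nr0b1. The summed stem cell markers were 921 to 1042 CPM with VB6 and 728 to 760 CPM with vehicle, and the definitive endoderm markers 179 to 190.0 and 104 to 118 CPM. In neither list did every marker move in the direction of its sum. The part of these markers, and of those given for day 7, was not tested.

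At day 7 the short fragments were in the VB6 libraries, and Klf2 had the opposite sign. It had 6.75, 6.07 and 7.01 CPM with VB6, against 18.1, 11.6 and 12.3 CPM with vehicle. Its log2 fold change was -1.08 ± 0.19 (edgeR adjusted p = 0.000123), and -0.63 after correction (edgeR adjusted p = 0.00102). In all, 3 factors were called higher and 1 lower, where 36.5% of all genes were called, 18.6% higher and 17.9% lower. Tfcp2l1 had 63.7, 63.4 and 55.1 CPM with VB6, against 41.0, 48.2 and 42.7 CPM with vehicle, and rose by 0.47 ± 0.07 on the log2 scale (edgeR adjusted p = 2.99e-05), or 0.20 after correction (edgeR adjusted p = 0.0142). Klf5 had 54.2, 59.3 and 44.4 CPM with VB6, against 38.5, 43.1 and 40.9 CPM with vehicle (log2 0.37 ± 0.09, edgeR adjusted p = 0.00223; 0.25 after correction). The lowest VB6 library of each gene still lay above every vehicle library. Prdm14 had 14, 30 and 25 expected counts with VB6, against 23, 8 and 3 with vehicle, and the groups overlapped. Its log2 fold change of 1.004 ± 0.39 (edgeR adjusted p = 0.0456) ran from 0.55 without vehicle replicate 3 to 2.01 without vehicle replicate 1. It was also not called without vehicle replicate 2 (log2 0.83) or VB6 replicate 2 or 3 (log2 0.77 and 0.98). Klf4 had 25.2, 24.0 and 18.9 CPM with VB6, against 20.1, 15.4 and 17.8 CPM with vehicle, overlapping, with a log2 fold change of 0.35 ± 0.15 (edgeR adjusted p = 0.0676). It was called after correction (log2 0.47, edgeR adjusted p = 0.0069), without VB6 replicate 3 (log2 0.47) and without vehicle replicate 1 (log2 0.45). Esrrb, Tbx3, Zfp42, Nr0b1 and Nr5a2 overlapped between the arms at day 7 and did not pass the test. The summed stem cell markers were 331 to 379.8 CPM with VB6 and 443 to 545 CPM with vehicle on that day.

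Averaged over the 3 days, Esrrb alone was called, at a log2 fold change of 0.17 ± 0.05 (edgeR adjusted p = 0.0362), where 11.7% of all genes were called and 6.58% called higher. It was not called after correction (log2 0.11, edgeR adjusted p = 0.137), nor without any 1 of 10 of the 18 libraries, among which its log2 fold change ran from 0.15 to 0.17. Klf2 was at -0.21 (edgeR adjusted p = 0.195), and it was called lower after correction (log2 -0.29, edgeR adjusted p = 0.00747) and with no filter on low counts (log2 -0.21, edgeR adjusted p = 0.0119). The difference between VB6 and vehicle was not the same on all days for 8 of the 10, the exceptions being Nr0b1 (edgeR adjusted p = 0.283) and Nr5a2 (edgeR adjusted p = 0.228), and 60.0% of all genes passed that F test. For Klf2 its adjusted p was 1.02e-08 in edgeR and 1.48e-06 after correction. For Esrrb it was 0.00497, and 0.278 after correction.

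Genes that act with the factors were described through 4 lists. The regulators and partners of the network had 14 tested genes, none higher and 5 lower with VB6 at day 3, where 4.26% of all genes were called and 2.77% lower, with a median log2 fold change of -0.20 against -0.01 over all genes. Among the called genes with the smallest p were Gbx2, a homeobox target of LIF and Stat3 (log2 -1.64 ± 0.32), Lifr, a chain of the LIF receptor (-0.37 ± 0.08), and Sox2 (-0.44 ± 0.10). Against ES cells at vehicle day 3, 6 of these 14 rose and 8 fell, in a comparison that called 64.9% of all genes. Stat3 fell by 1.68 ± 0.07 and Lifr by 1.86 ± 0.07 on the log2 scale. Pou5f1, which encodes Oct4, kept 883.7 CPM at vehicle day 3, against 1161 CPM in ES cells, and its loss came later, at a log2 fold change of -3.54 ± 0.09 between vehicle days 3 and 7. Another 14 naive or ground state genes had none higher and 6 lower with VB6 at day 3 (median -0.25), where 2.77% of all genes were called lower. Among them Jam2, a junction adhesion molecule, was at -0.86 ± 0.12, Tcl1, a cofactor of Akt, at -0.63 ± 0.11, and Zfp57, which guards imprints, at -0.51 ± 0.07. Of the same 14 genes, 1 was higher and 11 were lower at vehicle day 3 against ES cells, where 31.8% of all genes were called lower. Tcl1 was at -3.001 ± 0.10 and Spp1 at -2.34 ± 0.06.

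The formative factors, which come on as the naive ones go, were higher in 11 of 12 cases at vehicle day 3 against ES cells and lower in 1. Their median log2 fold change was 3.22, against 0.01 over all genes, and 64.9% of all genes were called. Otx2 stood at 4.51 ± 0.08 and Pou3f1 at 4.44 ± 0.12. With VB6 at day 3, 9 of these 12 were lower than with vehicle and none was higher (median -0.54), where 2.77% of all genes were called lower. Pou3f1 was at -0.68 ± 0.09, Lef1 at -0.91 ± 0.13, Foxd3 at -0.86 ± 0.15 and Tcf15 at -0.78 ± 0.10 on the log2 scale. At day 5, 8 were higher and 2 lower with VB6, where 56.7% of all genes were called. After correction 1 was higher and 6 were lower, where 39.7% of the genes used were called, so the direction at day 5 turned with the correction. At day 7 none was higher and 6 were lower, before and after correction, where 36.5% of all genes were called before it and 28.1% of the genes used after it. In these comparisons the regulators and partners had 6 higher and 4 lower at day 5 (3 and 5 after correction), and 5 higher and 4 lower at day 7 (4 and 3 after correction). The other naive genes had 4 higher and 3 lower on both days, and 2 and 2 after correction.

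Of 28 paralogues of the 10 factors, 24 passed the filter. At day 3 1 was higher and 1 lower with VB6, where 4.26% of all genes were called, with a median log2 fold change of 0.01. Klf6 was higher (0.36 ± 0.09) and Klf16 lower (-0.40 ± 0.10). Against ES cells at vehicle day 3, 8 rose and 6 fell, against 64.9% of all genes called. Klf3 shared the fall of the naive Klf genes (-1.24 ± 0.08), whereas Klf13 (1.56 ± 0.07) and Klf7 (1.70 ± 0.09) rose. Klf6, looked at after its values were seen, stood at 265 CPM with VB6 and 263 CPM with vehicle at day 7, against 33.6 CPM in ES cells.

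For each factor, the 2 protein-coding genes whose group means followed it most closely were found among 13069 genes, as the root mean square difference of centred log2 CPM over the 7 groups. Zfp42 had the closest match, Cdyl2 at 0.09, followed by Dlgap3 at 0.15. Klf5 was matched by Acsl1 (0.12) and Prkar2a (0.15), and Esrrb by Itgb7 (0.18) and Lrriq4 (0.19). Lrriq4 was at only 0.11 CPM with VB6 and 0.096 CPM with vehicle at day 7. At such levels the log2 values depend on a small count added before taking logs. Tfcp2l1 followed Slc1a1 (0.23), and Klf2 followed Ubap1l (0.24) and Nupr1 (0.27). Ubap1l, at 0.25 CPM with VB6 at day 7, has the same limit as Lrriq4. Nr0b1 was nearest to Tuba3a and Fgf4 (0.25 each), Nr5a2 to Mmrn2 (0.24) and Pou2f3 (0.26), and Tbx3 to Tfap2c and Tfeb (0.27 each). Klf4 (Rapgef3 at 0.32, Bcl3 at 0.39) and Prdm14 (Kif19a at 0.41) had no match as close. Low levels also bear on Kif19a (0.26 CPM) and Prdm14 itself (0.58 CPM) with vehicle at day 5. The same holds for Pou2f3 (0.51 CPM with VB6 at day 5) and Rapgef3 (0.55 CPM with VB6 at day 3). Within the 10, the nearest pairs were Zfp42 with Nr5a2 (0.37) and Esrrb with Nr5a2 (0.38). All these distances share the same 21 libraries and are given as a description.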

How the data were processed

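The authors deposited expected counts (estimated counts per gene), TPM and FPKM for 21 libraries. The submitters' processing notes name mm10 as the genome build. The aligner and counter were not given in the sources used here, and the labels' protocol text speaks of both total RNA and small RNA enrichment. Library totals were 15882380 to 21629730, which sets the counting error of low genes such as Prdm14.

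Expected counts were rounded to whole numbers. Genes passing edgeR's filterByExpr (18901) were tested after TMM normalization with edgeR 4.0.16 (quasi-likelihood, R 4.3.3, limma 3.58.1), with a mean per group over all 21 libraries, and called at a Benjamini-Hochberg adjusted p below 0.05 over all genes. CPM values are TMM-normalized, and TPM is as deposited by the authors. The deposited FPKM served to derive fragment length, over 578 genes with 1 transcript, and the effective length of each gene. Effective length is the length implied by the deposited counts and FPKM, as a median over libraries. The correction fitted, per library, splines of 5 degrees of freedom in GC content (GENCODE M21) and in effective length. It covered 16159 genes, 85.5% of those tested. It can take up real differences that follow these properties.

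The 10 factors, the gene and marker lists and the alternatives were chosen with earlier results of these data known, and a list is described by its counts and median alone. Named beyond the 10 were up to 4 called genes with the smallest p per list and the 2 nearest genes per factor (mean CPM of at least 1), plus genes picked after their values were seen: Pou5f1 levels and Klf6 at day 7. A gene that this rule selects is not reported here. Some genes, such as Sox2 and Prdm1, stand in more than 1 list. The fits were tested on simulated data. Alternatives were DESeq2 1.42.0 and its size factors, no filter, a filter of 1 CPM in 3 libraries, the compared groups alone, a replicate block, the correction, limma on log2(TPM + 1) and log2(TPM + 0.1), and leaving out each library. Days 5 against ES were added after seeing the data.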

Additional observations from a re-analysis of the deposited data

Results flagged for a closer look

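For 8 of the 10 factors the difference between VB6 and vehicle was not the same at days 3, 5 and 7, by the F test of edgeR in the fit over all genes, which 60.0% of all genes passed. The adjusted p of that test was 1.02e-08 for Klf2, 1.28e-05 for Zfp42, 1.53e-05 for Tfcp2l1, 0.000168 for Klf4, 0.000228 for Tbx3, 0.000706 for Klf5, 0.00497 for Esrrb and 0.0254 for Prdm14. Klf2 had a log2 fold change of -0.93 at day 3, 1.39 at day 5 and -1.08 at day 7. Tfcp2l1 was at -0.20, -0.08 and 0.47, and Zfp42 at -0.34, 0.51 and 0.11. The mean implied fragment length was 308 nt with VB6 and 312 nt with vehicle at day 3, 312 and 227 nt at day 5, and 266 and 308 nt at day 7. After correction for GC content and length the test still passed for 7 of the 8, where 46.3% of the genes used passed. Esrrb did not pass (edgeR adjusted p = 0.278). Prdm14 did not pass without any 1 of 5 libraries, where its adjusted p ran from 0.0508 to 0.0614. Those were vehicle day 3 replicates 1 and 3, vehicle day 7 replicate 2, VB6 day 3 replicate 2 and VB6 day 7 replicate 2.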

How the results depend on the processing

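The loss of all 10 factors against ES cells was called at every day, in both arms, under all settings run. For VB6 against vehicle at day 3, the number of genes called was 1393 with no filter, 1991 with the compared groups alone, 1248 corrected, 277 and 200 with limma on log2(TPM + 1) and log2(TPM + 0.1), and 191 to 888 without 1 library. Factors called lower were 5 with DESeq2, no filter or the compared groups alone, 1 on either TPM scale, and 1 to 4 without 1 library. Genes called lower were 686 with DESeq2, 1143 with the compared groups alone, and 220 and 151 on the TPM scales. Corrected, genes called were 6411 at day 5, 4533 at day 7 and 7478 for the difference between days (6363, 4493 and 7419 with the replicate block as well). At day 5, 1 factor was called lower after correction (1 with the block) and 2 on either TPM scale. Genes called lower on that day were 3127 after correction (3097 with the block), and 6685 and 6424 on the TPM scales. At day 7, 6 and 5 were called higher on the TPM scales and 2 to 4 without 1 library. The TPM fits called 6787 and 6449 of the 18901 genes higher on that day. For the mean of the days, no filter gave 2 higher and 1 lower, the correction (with or without the block) 0 higher and 1 lower, the TPM scales 0 higher, log2(TPM + 0.1) 1309 genes, and 0 to 2 were higher without 1 library. Vehicle day 7 against day 5 had 1 factor called higher after correction, where 5175 genes were called higher. VB6 day 7 against day 5 had 2 called higher with DESeq2 size factors or the replicate block, 4 and 5 on the TPM scales, and 1 to 2 without 1 library. Of all genes, 5294 were called higher in that step with DESeq2 size factors, 5119 with the block, and 7886 and 7637 on the TPM scales.

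Signs that turned were as follows, in log2, the second value with the replicate block. Corrected, VB6 against vehicle gave 0.031 and 0.031 for Esrrb at day 3, 0.039 and 0.037 for Klf5, 0.21 and 0.20 for Tfcp2l1 and 0.25 and 0.24 for Nr5a2 at day 5, -0.0091 and -0.0069 for Nr5a2 at day 7, and 0.025 and 0.023 for Nr5a2 over the days. Corrected, vehicle day 7 against day 5 gave -0.19 and -0.19 for Klf2 and 0.35 and 0.35 for Nr5a2, vehicle day 7 against day 3 gave -0.040 and -0.041 for Tfcp2l1, and VB6 day 7 against day 5 gave -0.10 and -0.10 for Klf5 and -0.19 and -0.19 for Tfcp2l1. Of these, Tfcp2l1 at day 5 and at VB6 day 7 against day 5 passed the test. On log2(TPM + 1) and log2(TPM + 0.1), Nr0b1 with VB6 at day 7 was 0.0082 and 0.065, Klf4 at vehicle day 5 against day 3 was 0.0027 and 0.0028, Zfp42 and Prdm14 at vehicle day 7 against day 5 were -0.18 and -0.19 and -0.042 and -0.27, Klf5 at vehicle day 7 against day 3 was 0.071 and 0.075, and Klf2 at VB6 day 5 against day 3 was 0.017 and 0.018. Zfp42 at vehicle day 7 against day 5 was also -0.027 with DESeq2 size factors, -0.027 with DESeq2, -0.015 with the stricter filter and -0.023 with the compared groups alone. Without 1 library another 17 factor values changed sign, none of them called: over the libraries left out, Esrrb at day 3 with VB6 ran from -0.10 to 0.0038, Klf5 at day 5 from -0.11 to 0.027, Nr0b1 at day 7 from -0.59 to 0.16, Klf5 and Nr5a2 over the days from -0.0070 to 0.062 and -0.070 to 0.036, Zfp42, Prdm14 and Nr5a2 at vehicle day 7 against day 5 from -0.060 to 0.13, -0.85 to 0.60 and -0.20 to 0.13, and Klf5 at VB6 day 7 against day 5 from -0.049 to 0.16. The cause of these changes was not tested.

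On the TPM scale the median of all genes moved by -0.18 at day 5 and 0.18 at day 7 for VB6 against vehicle, by 0.25 for vehicle day 5 against day 3, -0.15 for vehicle day 7 against day 5 and 0.22 for VB6 day 7 against day 5. Higher calls were then 31.1% of all calls at day 5 (55.1% in the edgeR fit) and 82.9% at day 7 (51.1%). The labels do not say that replicate numbers pair the libraries. Correlations of same-numbered libraries ran from -0.25 to 0.29, and no comparison had all 3 above 0.1. With 3 libraries per group this cannot exclude pairing. In VB6 day 5 against day 3 each of the 6 libraries correlated best with its own number, a hint from the data only. With the block, VB6 day 7 against day 5 added Nr5a2 (log2 0.41) and vehicle day 7 against day 3 added Tfcp2l1 (log2 0.16), and VB6 against vehicle at day 7 lost Prdm14 (log2 1.014, edgeR adjusted p = 0.0541).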
